A study of Rattus norvegicus with 12 samples.

Results

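Skeletal muscle genes were followed in RNA of the rat prostate. They were 35 named genes of the contractile apparatus, the calcium release machinery and the energy supply of striated muscle, found on the array by gene name, with the brightest probe standing for a gene. Of the 35 names, 27 were found on the array. One of these names, Myl2, stood on probes whose accession gives Myl11, and they are counted as Myl11. A further 3 genes (Myl1, Myl2 and Ldb3) were reached only through an accession or an older synonym and are described apart. No probe was matched here for the other 5, the fast myosin heavy chains Myh1 and Myh2, the Z-disc protein Tcap, the calcium store protein Casq1 and the slow troponin Tnnc1. All genes with a named, kept probe numbered 14535. The 27 genes had 41 probes, of which 39 passed the filter on dim probes, and all 27 genes kept at least 1 probe. No spot of a member was saturated.

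The 4 groups, with 3 arrays each, were obstructed rats given Eviprostat (obstruction/Eviprostat), obstructed rats given vehicle (obstruction/vehicle), sham-operated rats given Eviprostat (sham/Eviprostat) and sham-operated rats given vehicle (sham/vehicle). All were males of 10 weeks, and the labels name no strain and no genetic change. Obstruction was partial and was made with a rubber ring tied around the proximal urethra. Eviprostat, a plant-based preparation used for prostate enlargement, was given at 18 mg/kg per dose, or 36 mg/kg per day, over 5 days, and vehicle was 0.1% Tween 80. Tissue was taken 2 h after the last dose. Dosing began 5 days after surgery in the sham groups and on the next day in the obstructed groups, so that time since surgery and obstruction cannot be told apart. Each group had 5 or 6 animals, and RNA came from tissue pooled within a group. The p-values measure how much arrays of a group varied, which may be technical.

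Skeletal muscle contracts when an action potential opens the calcium release channel of the sarcoplasmic reticulum, calcium binds the troponin complex on the thin filament, and myosin heads pull on actin. Fast and slow fibres use separate genes for the myosin chains, the 3 troponin subunits and the calcium pump, and share actin, titin and nebulin. Creatine kinases, glycolytic enzymes and myoglobin keep the fibres supplied with energy. The prostate is a gland in a stroma of smooth muscle, and striated fibres belong to the urethral sphincter and pelvic floor beside it. In bulk tissue, fewer muscle cells and less RNA per cell cannot be told apart.

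Values are log2 ratios of Cy5, the RNA of the group, over Cy3, sham/vehicle RNA, which was present on every array. On a sham/vehicle array both channels held RNA of that group. A difference is given ± its standard error from limma, fitted on all kept probes and arrays, and adjusted p-values are by Benjamini-Hochberg over 36098 probes with a threshold of 0.05. Within a group, values are listed for replicates 1, 2 and 3, which lay on slides 1, 2 and 3. Ratios of different probes are never set against each other as levels.

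One array stood apart. Obstruction/vehicle replicate 2 had a standard deviation of log2 ratios over all kept probes of 0.316, against 0.566 and 0.539 on obstruction/vehicle replicates 1 and 3. For Myh7, its Cy3 level was 9.11 (log2), against 7.71 and 7.42 on the other obstruction/vehicle arrays and between 7.09 and 7.28 on the sham/vehicle arrays, although Cy3 should carry the same RNA on all of them. Its Cy5 level for Myh7 was 10.05, against 9.89 and 10.09 on the other 2 arrays. For Ckmt2 its Cy3 level was 9.06, against 10.27 and 10.07. The ratios of both genes on this array were the nearest to 0 of the group, and each call of the 27 genes that changes without this array is given beside its gene. The reason for its Cy3 values was not tested.

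Group means of all 8 fast fibre genes fell into 1 order, lowest in obstruction/vehicle, then obstruction/Eviprostat, then sham/vehicle, and highest in sham/Eviprostat, although for Tnnc2 the order of the obstructed groups turned with the slide as a block. Relative to sham/vehicle, 1 member rose and 12 fell in obstruction/vehicle (of all kept probes, 7.16% rose and 4.45% fell). Relative to obstruction/vehicle, 8 rose and 2 fell in obstruction/Eviprostat (of all kept probes, 3.9% rose and 5.89% fell). Relative to sham/vehicle, 18 rose and none fell in sham/Eviprostat (of all kept probes, 0.87% rose and 0.659% fell). Relative to sham/Eviprostat, 20 fell and none rose in obstruction/Eviprostat (of all kept probes, 1.31% fell and 0.97% rose). Leaving out obstruction/vehicle replicate 2 gave 2 higher and 14 lower in the first of these comparisons and 9 higher and 1 lower in the second, and shares over all kept probes are not given for that fit. The 1 gene that rose in obstruction/vehicle and the 2 that fell in obstruction/Eviprostat were shares of the 27 below or near those over all kept probes. The median difference of the 8 fast fibre genes was -1.63, 0.72, 1.32 and -2.17 in these 4 comparisons, while medians over all kept probes lay between -0.012 and 0.011. The 4 slow fibre genes had medians of 0.33, -0.33, 0.69 and -0.56. Their probes were dim, with mean log2 intensities over both channels of 6.93 to 8.09, against 10.35 to 13.58 for the fast fibre genes. The size of the slow fibre medians depended on the processing, and larger values with the scanner software's ratios are given in the closing section.

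By class, obstruction under vehicle was followed by lower values in 7 of 8 fast fibre genes, 4 of 7 energy genes, 1 of 5 shared sarcomere genes and none of the 3 calcium release genes, and by a higher value in 1 of 4 slow fibre genes. With Eviprostat in obstructed rats 4 fast fibre and 4 energy genes were higher, and 1 energy and 1 slow fibre gene lower. With Eviprostat in sham rats 7 fast fibre, 5 energy, 3 shared sarcomere, 2 calcium release and 1 slow fibre gene were higher. In obstruction/Eviprostat against sham/Eviprostat all 8 fast fibre genes were lower, with differences of -2.80 to -1.51, and so were 6 energy, 3 shared sarcomere, 2 calcium release and 1 slow fibre gene. With the slide as a block, counts that moved by over 1.5 times were, for obstruction under vehicle, 2 slow fibre genes higher and 2 shared sarcomere and 1 calcium release gene lower. In obstructed rats given Eviprostat they were 7 fast fibre genes higher and 2 slow fibre genes lower. All 5 shared sarcomere genes passed with the block in sham/Eviprostat against sham/vehicle, as higher, and in obstruction/Eviprostat against sham/Eviprostat, as lower, where 2 slow fibre genes were lower too. Of all kept probes the block called 13.3% higher and 11.9% lower for obstruction under vehicle, 11.4% higher and 12.1% lower for Eviprostat in obstructed rats, 3.21% higher and 3.11% lower for Eviprostat in sham rats, and 4.43% higher and 4.32% lower in obstruction/Eviprostat against sham/Eviprostat. Within slides, all 27 genes were above 0 on each of the 3 slides for sham/Eviprostat against sham/vehicle, and 26 were below 0 on each for obstruction/Eviprostat against sham/Eviprostat. For obstruction/vehicle against sham/vehicle 17 were below 0 on every slide and 1, Myh7, above it. Shares over all kept probes are not given for these within-slide counts, so they do not show how far the members stood apart.

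**Figure D1:**
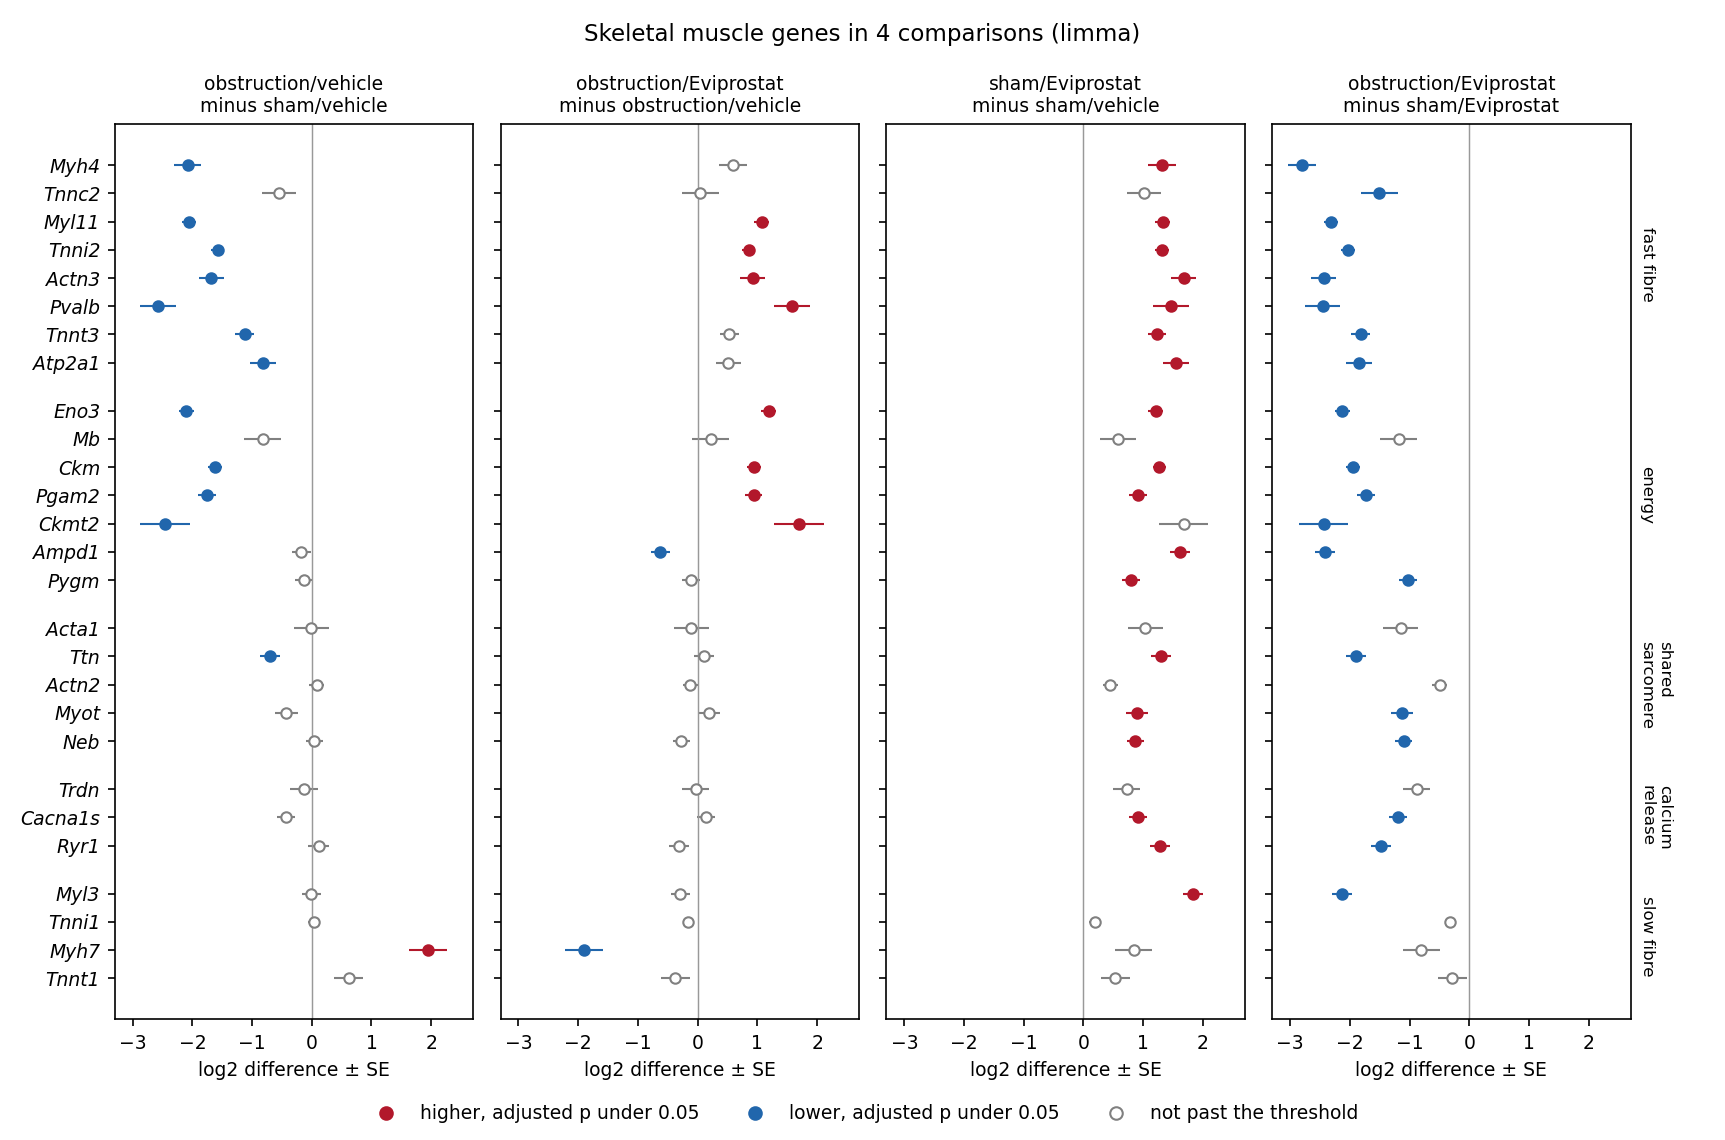
Log2 differences ± SE (horizontal axis) of the 27 skeletal muscle genes (rows, by class) in 4 comparisons, from limma on 12 arrays. Filled red points are higher and filled blue points lower at an adjusted p under 0.05. Fast fibre and most energy genes lie left of 0 for obstruction under vehicle and right of 0 for sham/Eviprostat, and Myh7 lies on the right in the first panel.

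Sequences around the annotated start of 4 members that followed different courses are shown with matches to motifs of muscle gene regulation. Myh4 and Ckm fell with obstruction, Myh7 rose, and Ampd1 differed in its response to Eviprostat between obstructed and sham rats. Capitals mark the E-box CAGCTG (a palindrome, bound by myogenic bHLH factors), the MEF2 motif and the CArG box of serum response factor, searched on both strands. The marked matches do not overlap in these windows of 300 bases around the annotated start, which come from RefSeq on GRCr8.
Myh4, chr10:52421898-52422197, plus strand: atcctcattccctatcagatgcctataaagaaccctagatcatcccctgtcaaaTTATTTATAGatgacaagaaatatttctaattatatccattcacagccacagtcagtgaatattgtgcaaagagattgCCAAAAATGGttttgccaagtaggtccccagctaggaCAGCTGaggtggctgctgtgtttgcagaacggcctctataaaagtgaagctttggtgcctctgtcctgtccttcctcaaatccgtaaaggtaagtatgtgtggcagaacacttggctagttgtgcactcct
Ckm, chr1:88189211-88189510, plus strand: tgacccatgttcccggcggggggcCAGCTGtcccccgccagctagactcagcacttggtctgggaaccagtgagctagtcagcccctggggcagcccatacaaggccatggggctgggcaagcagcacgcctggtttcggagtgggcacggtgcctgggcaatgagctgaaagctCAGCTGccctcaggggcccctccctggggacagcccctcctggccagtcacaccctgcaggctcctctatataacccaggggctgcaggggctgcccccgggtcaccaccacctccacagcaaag
Myh7, chr15:32438145-32438444, minus strand: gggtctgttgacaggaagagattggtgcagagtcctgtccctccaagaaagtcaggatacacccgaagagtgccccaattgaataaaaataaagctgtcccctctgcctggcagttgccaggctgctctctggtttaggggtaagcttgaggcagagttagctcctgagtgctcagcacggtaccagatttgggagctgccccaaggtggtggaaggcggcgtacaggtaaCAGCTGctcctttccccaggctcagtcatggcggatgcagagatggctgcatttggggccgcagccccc
Ampd1, chr2:193287082-193287381, plus strand: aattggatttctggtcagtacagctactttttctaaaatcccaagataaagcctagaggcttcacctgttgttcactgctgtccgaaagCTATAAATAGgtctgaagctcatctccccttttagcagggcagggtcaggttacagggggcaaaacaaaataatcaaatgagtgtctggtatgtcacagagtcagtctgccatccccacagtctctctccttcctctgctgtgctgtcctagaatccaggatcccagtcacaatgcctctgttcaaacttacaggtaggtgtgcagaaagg

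In these windows Myh4 held 1 match of each motif, with its E-box 81 bases before the start, the CArG box 118 bases before it and the MEF2 motif 196 bases before it. Ckm held 2 E-boxes, 75 and 226 bases before the start. Myh7 held 1 E-box, 19 bases before the start, and Ampd1 held 1 MEF2 motif, 161 bases before it. The annotated start of Myh7 directly follows a run of pyrimidines ending in cag, as the end of an intron has, and an atg follows closely. This window may therefore not be the Myh7 promoter, which was not tested. Promoters were found for 30 of the 35 listed genes, giving 31 windows because Myl1 has more than 1. Of those windows, 12 (38.7%) held the E-box, 5 (16.1%) the MEF2 motif and 4 (12.9%) the CArG box. Over all 33469 rat promoter windows the shares were 15.1%, 3.29% and 1.64%. A match is a description of letters and not a binding site shown in these data, and 13 of the 31 windows held none of these motifs.

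The fast fibre genes are taken first, beginning with the myosin chains. Myh4, the heavy chain of the fastest fibres (type IIB), had log2 ratios of -1.24, -1.14 and -1.11 in obstruction/Eviprostat, -1.46, -1.98 and -1.82 in obstruction/vehicle, 1.98, 1.49 and 1.44 in sham/Eviprostat, and 0.93, 0.019 and 0.032 in sham/vehicle. Every obstructed array lay below every sham array, and every sham/Eviprostat array above every sham/vehicle array, although sham/vehicle replicate 1 stood well above the other 2 arrays of its group. Its difference was -2.08 ± 0.23 (adjusted p = 9.93e-05) in obstruction/vehicle against sham/vehicle, or 4.23-fold lower. It was 1.31 ± 0.23 (adjusted p = 0.0135) in sham/Eviprostat against sham/vehicle, or 2.48-fold higher. In obstruction/Eviprostat against obstruction/vehicle the value was 0.59 ± 0.23 (adjusted p = 0.145), which passed with the slide as a block (adjusted p = 0.016). The Myh4 probe lies at chromosome 10, 53967556 to 53967615 on rat build rn3, as the array's design gives it. No annotation of that build was used here, so whether probes are exonic or in a UTR is not stated.

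Myl11, the regulatory light chain of fast fibres, had log2 ratios of -1.05, -0.91 and -0.94 in obstruction/Eviprostat, -2.21, -1.99 and -1.92 in obstruction/vehicle, 1.15, 1.42 and 1.46 in sham/Eviprostat, and -0.19, 0.14 and 0.11 in sham/vehicle. The 4 groups did not overlap. Myl11 fell by 2.06 on the log2 scale in obstruction/vehicle against sham/vehicle (4.16-fold lower, SE 0.12, adjusted p = 5.57e-07). It was 1.07 ± 0.12 (adjusted p = 0.000132) higher in obstruction/Eviprostat than in obstruction/vehicle and 1.33 ± 0.12 (adjusted p = 0.000122) higher in sham/Eviprostat than in sham/vehicle. Its probe lies at chromosome 1, 186624286 to 186624345 on rn3, and the array calls it Myl2. A second probe under that array name lies beside it on the opposite strand and gave -0.24 with obstruction under vehicle, with an adjusted p of 0.144.

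The 3 fast troponin subunits set the calcium response of the thin filament. Tnni2, the inhibitory subunit, had log2 ratios of -0.84, -0.73 and -0.69 in obstruction/Eviprostat, -1.89, -1.57 and -1.36 in obstruction/vehicle, 1.28, 1.27 and 1.30 in sham/Eviprostat, and -0.018, -0.052 and -0.02 in sham/vehicle. Its groups did not overlap, and its 3 sham/Eviprostat arrays nearly coincided, as did its 3 sham/vehicle arrays. Tnni2 differed by -1.58 ± 0.11 (adjusted p = 3.1e-06) in obstruction/vehicle against sham/vehicle, 0.85 ± 0.11 (adjusted p = 0.000503) in obstruction/Eviprostat against obstruction/vehicle and 1.31 ± 0.11 (adjusted p = 8.88e-05) in sham/Eviprostat against sham/vehicle. Tnnt3, the subunit that binds tropomyosin, had log2 ratios of -0.66, -0.81 and -0.75 in obstruction/Eviprostat, -1.64, -0.95 and -1.23 in obstruction/vehicle, 0.93, 1.09 and 1.22 in sham/Eviprostat, and -0.36, -0.015 and -0.069 in sham/vehicle. It fell with obstruction under vehicle, by 1.12 on the log2 scale (SE 0.16, adjusted p = 0.000625), and rose in sham/Eviprostat, by 1.23 ± 0.16 (adjusted p = 0.00198). Between obstruction/Eviprostat and obstruction/vehicle its difference was 0.53 ± 0.16 (adjusted p = 0.0556), and Tnnt3 passed with the slide block (adjusted p = 0.00888) and without obstruction/vehicle replicate 2 (0.69, adjusted p = 0.00651).

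Tnnc2, the calcium-binding subunit, had log2 ratios of -0.26 and -0.14 in obstruction/Eviprostat, 0.17, -0.56 and -0.35 in obstruction/vehicle, 1.82, 1.08 and 1.01 in sham/Eviprostat, and 0.89, 0.002 and -0.0077 in sham/vehicle. Obstruction/Eviprostat replicate 2 carries no value because the scanner software marked its spot as an outlier, so the fit used 2 arrays of that group. On slide 1 all values of the obstruction/vehicle, sham/Eviprostat and sham/vehicle groups were higher than on the other slides. Its difference was -0.54 ± 0.28 (adjusted p = 0.275) for obstruction/vehicle against sham/vehicle and 1.01 ± 0.28 (adjusted p = 0.136) for sham/Eviprostat against sham/vehicle, and both passed with the slide block (adjusted p = 0.0265 and 0.00313). Between obstruction/Eviprostat and obstruction/vehicle Tnnc2 gave 0.048 ± 0.32 (adjusted p = 0.956), but -0.091 with the slide block, -0.43 on slide 1 and 0.21 on slide 3. In obstruction/Eviprostat against sham/Eviprostat it fell, by 1.51 on the log2 scale (SE 0.32, adjusted p = 0.0326), a call lost when any 1 array of either group was left out, and the adjusted p reached 0.174 over the alternatives tried.

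The remaining fast fibre genes followed the same order of group means. Actn3, the Z-disc actinin of fast fibres, had log2 ratios of -0.49, -1.10 and -1.20 in obstruction/Eviprostat, -1.55, -2.01 and -2.01 in obstruction/vehicle, 1.94, 1.33 and 1.25 in sham/Eviprostat, and -0.15, -0.14 and -0.23 in sham/vehicle. The obstruction/Eviprostat and obstruction/vehicle arrays lay apart from each other and below both sham groups. Its differences were -1.68 ± 0.21 (adjusted p = 0.00027) with obstruction under vehicle, 0.92 ± 0.21 (adjusted p = 0.0172) with Eviprostat in obstructed rats and 1.68 ± 0.21 (adjusted p = 0.00175) with Eviprostat in sham rats. The value in obstructed rats no longer passed when replicate 3 of obstruction/vehicle was left out, nor when replicate 1 of obstruction/Eviprostat was.

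Pvalb encodes parvalbumin, the calcium buffer that speeds the relaxation of fast fibres. Its log2 ratios were -0.41, -0.98 and -0.97 in obstruction/Eviprostat, -2.35, -1.87 and -2.89 in obstruction/vehicle, 2.20, 1.41 and 1.40 in sham/Eviprostat, and 0.68, -0.043 and -0.027 in sham/vehicle. The 3 obstruction/vehicle arrays were the lowest and the 3 sham/Eviprostat arrays the highest, without overlap. It fell 5.95-fold in obstruction/vehicle against sham/vehicle (-2.57 ± 0.30, adjusted p = 0.000133), and was 2.99-fold higher in obstruction/Eviprostat than in obstruction/vehicle (1.58 ± 0.30, adjusted p = 0.0053). In sham/Eviprostat against sham/vehicle it rose by 1.47 ± 0.30 (adjusted p = 0.0302), a call lost when any 1 array of these groups other than sham/vehicle replicate 1 was left out. Atp2a1, the calcium pump of the fast sarcoplasmic reticulum, had log2 ratios of 0.024, -0.69 and -0.71 in obstruction/Eviprostat, -0.86, -0.80 and -1.26 in obstruction/vehicle, 1.82, 1.20 and 1.14 in sham/Eviprostat, and -0.10, -0.21 and -0.17 in sham/vehicle. Its obstruction/vehicle arrays lay below all others, and obstruction/Eviprostat overlapped sham/vehicle through replicate 1. Atp2a1 differed by -0.81 ± 0.22 (adjusted p = 0.0305) in obstruction/vehicle against sham/vehicle, a call lost in 6 of 23 alternatives, and by 1.55 ± 0.22 (adjusted p = 0.00326) in sham/Eviprostat against sham/vehicle. In obstruction/Eviprostat against obstruction/vehicle it gave 0.52 ± 0.22 (adjusted p = 0.177), or an adjusted p of 0.0201 with the slide block.

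**Figure D2:**
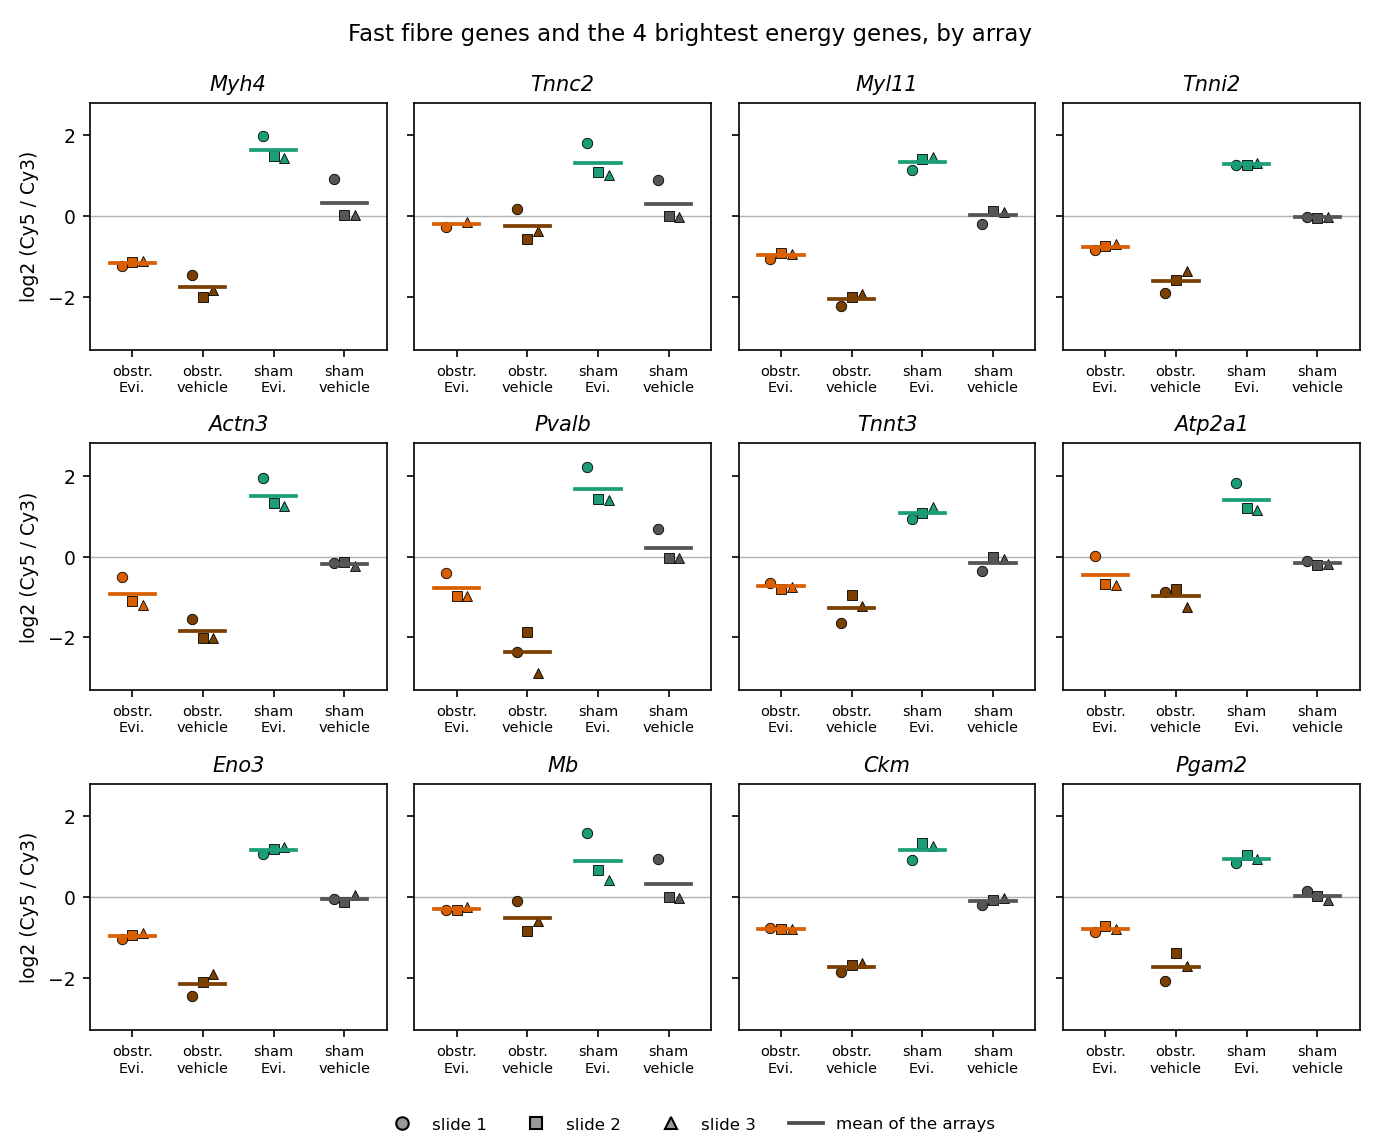
Log2 ratio of Cy5 over Cy3 (vertical axis) on each array for the 8 fast fibre genes and the 4 brightest energy genes, in 4 groups of 3 arrays (2 for Tnnc2 in obstruction/Eviprostat). Points are arrays, with symbols for slides, and lines are group means. For most of these genes sham/Eviprostat is highest and obstruction/vehicle lowest, and slide 1 sits high for Myh4, Tnnc2, Pvalb and Mb in sham/vehicle.

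Of the 7 energy genes, Eno3, Ckm, Pgam2 and Ckmt2 fell with obstruction under vehicle, and Mb, Ampd1 and Pygm did not pass that test. Eno3, the muscle enolase of glycolysis, had log2 ratios of -1.04, -0.95 and -0.90 in obstruction/Eviprostat, -2.45, -2.10 and -1.90 in obstruction/vehicle, 1.07, 1.19 and 1.24 in sham/Eviprostat, and -0.065, -0.13 and 0.05 in sham/vehicle. The 4 groups were fully separate. Eno3 fell 4.30-fold in obstruction/vehicle against sham/vehicle (-2.10 ± 0.12, adjusted p = 5.89e-07) and was 2.28-fold higher in obstruction/Eviprostat than in obstruction/vehicle (1.19 ± 0.12, adjusted p = 7.39e-05). In sham/Eviprostat it was 2.32-fold above sham/vehicle (1.21 ± 0.12, adjusted p = 0.000334).

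Ckm, the cytosolic creatine kinase that regenerates ATP, had log2 ratios of -0.77, -0.80 and -0.79 in obstruction/Eviprostat, -1.86, -1.69 and -1.64 in obstruction/vehicle, 0.90, 1.34 and 1.25 in sham/Eviprostat, and -0.20, -0.085 and -0.032 in sham/vehicle. Its groups were separate too, with a spread of at most 0.23 (SD, n = 3) within a group. The differences were -1.62 ± 0.11 (adjusted p = 2.47e-06) with obstruction under vehicle, 0.94 ± 0.11 (adjusted p = 0.00023) with Eviprostat in obstructed rats and 1.27 ± 0.11 (adjusted p = 0.000115) with Eviprostat in sham rats. Pgam2, the muscle phosphoglycerate mutase, had log2 ratios of -0.87, -0.71 and -0.80 in obstruction/Eviprostat, -2.09, -1.39 and -1.72 in obstruction/vehicle, 0.83, 1.04 and 0.93 in sham/Eviprostat, and 0.14, 0.019 and -0.084 in sham/vehicle. It moved the same way, by -1.76 ± 0.15 (adjusted p = 9.34e-06), 0.94 ± 0.15 (adjusted p = 0.0015) and 0.91 ± 0.15 (adjusted p = 0.00803) in the same 3 comparisons.

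Ckmt2, the creatine kinase of muscle mitochondria, had log2 ratios of -0.07, -0.69 and -0.68 in obstruction/Eviprostat, -2.44, -1.08 and -3.03 in obstruction/vehicle, 2.50, 1.71 and 1.67 in sham/Eviprostat, and 0.71, 0.098 and 0.026 in sham/vehicle. The obstruction/vehicle values spread widely, and replicate 2, whose Cy3 level was low for this gene, was the nearest to 0. Ckmt2 fell by 2.46 on the log2 scale in obstruction/vehicle against sham/vehicle (SE 0.41, adjusted p = 0.00212), and the difference without that array was -3.01. It was 1.70 ± 0.41 (adjusted p = 0.0221) higher in obstruction/Eviprostat than in obstruction/vehicle. The value no longer passed when obstruction/vehicle replicate 1 or 3, or any obstruction/Eviprostat array, was left out. For sham/Eviprostat against sham/vehicle the value was 1.68 ± 0.41 (adjusted p = 0.0762), with the slide block 0.0111 and without obstruction/vehicle replicate 2 0.00689.

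Mb, the oxygen store myoglobin, had log2 ratios of -0.32, -0.33 and -0.24 in obstruction/Eviprostat, -0.11, -0.85 and -0.59 in obstruction/vehicle, 1.57, 0.66 and 0.42 in sham/Eviprostat, and 0.94, 0.0036 and -0.024 in sham/vehicle. In sham/Eviprostat and sham/vehicle the slide 1 array was far above the others, and these groups overlapped, while both obstructed groups lay below both sham groups. On the slide 1 arrays of the sham groups the Cy3 level of Mb was 12.47 and 12.41, against 13.00 to 13.26 on their other arrays. Its Cy5 level differed less between slides, with 13.36 on slide 1 against 13.09 and 13.19 in sham/vehicle. In sham/Eviprostat the Cy5 level was 14.04 against 13.66 and 13.68. In the fit of all arrays without the block Mb passed no test, with -0.82 ± 0.31 (adjusted p = 0.116) for obstruction under vehicle and -1.18 ± 0.31 (adjusted p = 0.0773) for obstruction/Eviprostat against sham/Eviprostat. With the slide block both passed (adjusted p = 0.00636 and 0.00186). Both passed in Cy5 alone as well, with -0.94 (adjusted p = 0.00101) and -1.50 (adjusted p = 0.00025), and on slides 2 and 3 alone, with -0.71 (adjusted p = 0.00694) and -0.83 (adjusted p = 0.00783).

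Ampd1 and Pygm had another order of groups. Ampd1, the AMP deaminase of muscle, had log2 ratios of -0.73, -1.13 and -0.97 in obstruction/Eviprostat, -0.58, -0.12 and -0.26 in obstruction/vehicle, 1.23, 1.61 and 1.57 in sham/Eviprostat, and -0.43, -0.053 and 0.035 in sham/vehicle. Obstruction/vehicle overlapped sham/vehicle, obstruction/Eviprostat lay below both, and sham/Eviprostat far above. With obstruction under vehicle the value was -0.17 ± 0.16 (adjusted p = 0.585). Eviprostat was followed by a rise of 1.62 ± 0.16 (adjusted p = 0.000287) in sham rats and a difference of -0.62 ± 0.16 (adjusted p = 0.0313) in obstructed rats. The call in obstructed rats was lost in 7 of 23 alternatives, leaving out obstruction/vehicle replicate 2 among them (-0.53, adjusted p = 0.0642). A dimmer second probe of Ampd1 passed none of these tests. It gave 0.16 (adjusted p = 0.422) with obstruction under vehicle, -0.21 (adjusted p = 0.289) with Eviprostat in obstructed rats and 0.079 (adjusted p = 0.93) with Eviprostat in sham rats.

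Pygm, the muscle glycogen phosphorylase, had log2 ratios of -0.062, -0.33 and -0.29 in obstruction/Eviprostat, 0.10, -0.15 and -0.31 in obstruction/vehicle, 1.17, 0.66 and 0.59 in sham/Eviprostat, and 0.055, -0.047 and 0.036 in sham/vehicle. Sham/Eviprostat stood above the other groups, and obstruction/Eviprostat lay just below sham/vehicle. Pygm rose by 0.79 ± 0.15 (adjusted p = 0.0228) in sham/Eviprostat against sham/vehicle, a call lost in 6 of 23 alternatives. Obstruction under vehicle gave -0.14 ± 0.15 (adjusted p = 0.657), and Eviprostat in obstructed rats -0.10 ± 0.15 (adjusted p = 0.755).

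Of the 4 slow fibre genes, Myh7 rose with obstruction under vehicle, Myl3 rose with Eviprostat in sham rats, and Tnni1 and Tnnt1 passed no test in the fit of all arrays without the slide block. Myh7, the slow heavy chain, which heart muscle also uses, had log2 ratios of -0.064, 0.023 and 0.12 in obstruction/Eviprostat, 2.18, 0.94 and 2.67 in obstruction/vehicle, 0.69, 1.01 and 0.79 in sham/Eviprostat, and -0.048, 0.079 and -0.064 in sham/vehicle. All obstruction/vehicle arrays lay above all arrays of sham/vehicle and obstruction/Eviprostat, and replicate 2 of that group overlapped sham/Eviprostat. Myh7 was 3.85-fold higher in obstruction/vehicle than in sham/vehicle (1.94 ± 0.31, adjusted p = 0.00162) and 3.75-fold lower in obstruction/Eviprostat than in obstruction/vehicle (-1.91 ± 0.31, adjusted p = 0.00218). Without obstruction/vehicle replicate 2 these Myh7 differences were 2.44 and -2.40. It was the 1 member that rose with obstruction. In sham/Eviprostat against sham/vehicle the value was 0.84 ± 0.31 (adjusted p = 0.316), or an adjusted p of 0.0053 without obstruction/vehicle replicate 2. In obstruction/Eviprostat against sham/Eviprostat Myh7 gave -0.80 ± 0.31 (adjusted p = 0.298), or 0.00659 without that array. On only 2 of the 3 obstruction/Eviprostat arrays was the Myh7 spot well above background. Its probe lies at chromosome 15, 33088720 to 33089345 on rn3. Myh6, the closely related heart muscle heavy chain, differed by 1.52 ± 0.28 (adjusted p = 0.00398) and -1.35 ± 0.28 (adjusted p = 0.00956) in the same 2 comparisons, and whether the probes of both genes read 1 transcript was not tested.

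Myl3, the essential light chain of slow fibres and heart, had log2 ratios of 0.086, -0.27 and -0.38 in obstruction/Eviprostat, 0.36, 0.019 and -0.072 in obstruction/vehicle, 2.14, 1.93 and 1.77 in sham/Eviprostat, and 0.34, 0.09 and -0.099 in sham/vehicle. The 3 sham/Eviprostat arrays stood alone, and the other 3 groups overlapped. It rose 3.56-fold in sham/Eviprostat against sham/vehicle (1.83 ± 0.16, adjusted p = 9.67e-05) and was 4.38-fold lower in obstruction/Eviprostat than in sham/Eviprostat (-2.13 ± 0.16, adjusted p = 1.59e-05). Obstruction under vehicle gave -0.009 ± 0.16 (adjusted p = 0.983), and Eviprostat in obstructed rats -0.29 ± 0.16 (adjusted p = 0.328), which passed with the slide block (adjusted p = 0.00888). The Myl3 probe lies at chromosome 8, 115164553 to 115165668 on rn3.

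Tnni1, the slow inhibitory troponin, had log2 ratios of 0.047, -0.24 and -0.26 in obstruction/Eviprostat, -0.018, -0.0058 and 0.047 in obstruction/vehicle, 0.089, 0.18 and 0.22 in sham/Eviprostat, and -0.0021, -0.072 and 0.0054 in sham/vehicle. All its values lay between -0.26 and 0.22, with all obstruction/Eviprostat arrays below all sham/Eviprostat arrays, and it passed no test in the fit of all arrays without the block. Its largest difference was -0.32 ± 0.093 (adjusted p = 0.126), in obstruction/Eviprostat against sham/Eviprostat, which passed with the slide block (adjusted p = 0.0462). On slides 2 and 3 alone Tnni1 passed there (-0.45, adjusted p = 0.0114) and in obstruction/Eviprostat against obstruction/vehicle (-0.27, adjusted p = 0.0436). Tnnt1, the slow tropomyosin-binding troponin, had log2 ratios of 0.016, 0.41 and 0.42 in obstruction/Eviprostat, 0.67, 0.10 and 1.18 in obstruction/vehicle, 0.20, 0.57 and 0.92 in sham/Eviprostat, and -0.035, 0.17 and -0.04 in sham/vehicle. All sham/Eviprostat arrays lay above all sham/vehicle arrays and the other groups overlapped, and it was well above background on only 1 of 3 obstruction/Eviprostat arrays and 1 of 3 sham/vehicle arrays. With obstruction under vehicle it gave 0.62 ± 0.24 (adjusted p = 0.135), and both the slide block (adjusted p = 0.0364) and leaving out obstruction/vehicle replicate 2 (0.90, adjusted p = 0.0114) brought it past the threshold. So did median centring, the scanner software's ratios, Cy5 alone and no background subtraction, with Tnnt1 differences of 0.28 to 3.41.

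**Figure D3:**
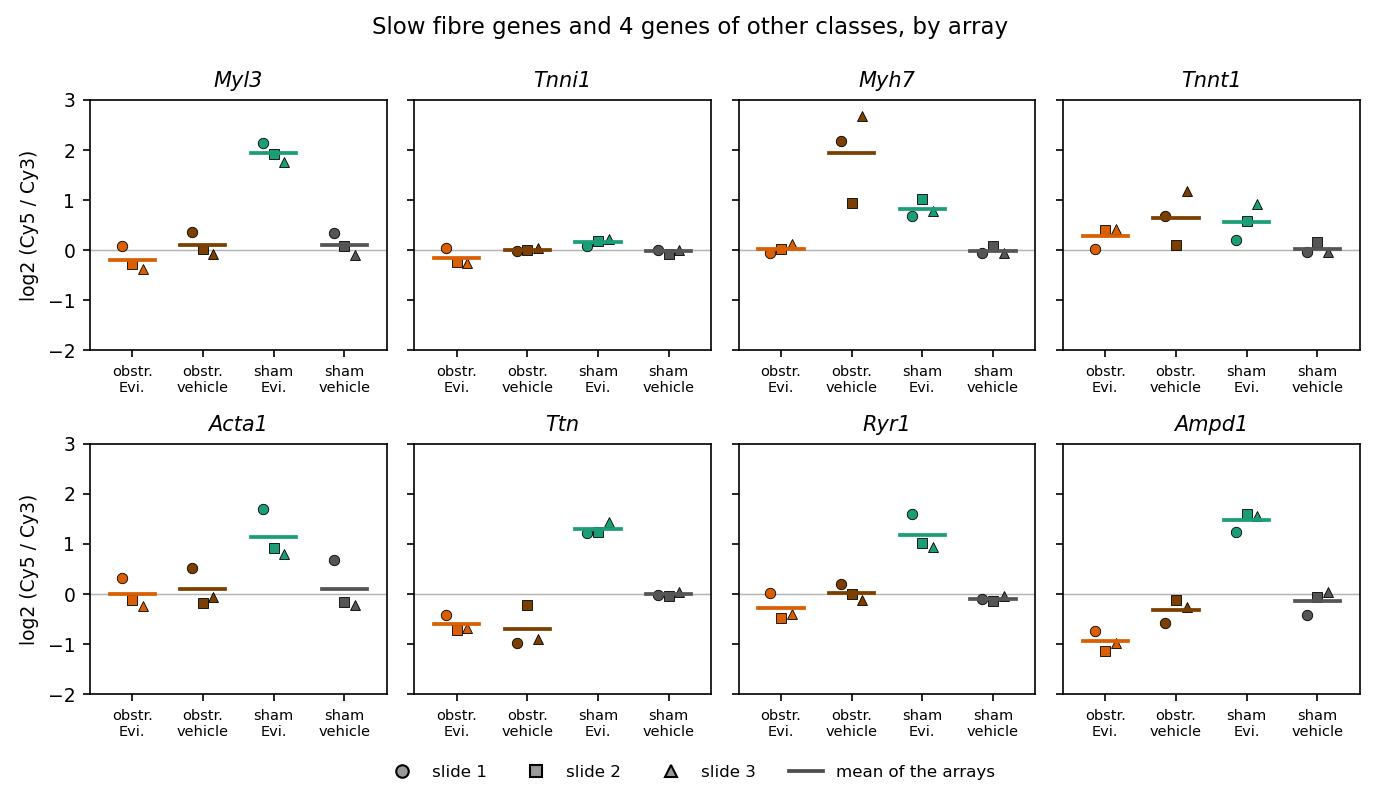
Log2 ratio of Cy5 over Cy3 (vertical axis) on each array for the 4 slow fibre genes, Acta1, Ttn, Ryr1 and Ampd1, in 4 groups of 3 arrays. Points are arrays, with symbols for slides, and lines are group means. Myh7 is highest in obstruction/vehicle, and Myl3, Ttn, Ryr1 and Ampd1 are highest in sham/Eviprostat.

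Of the 5 sarcomere genes shared by all fibre types, only Ttn passed the test with obstruction under vehicle. Acta1, skeletal muscle actin, had log2 ratios of 0.33, -0.12 and -0.23 in obstruction/Eviprostat, 0.52, -0.17 and -0.066 in obstruction/vehicle, 1.70, 0.92 and 0.80 in sham/Eviprostat, and 0.68, -0.17 and -0.21 in sham/vehicle. On slide 1 every group read higher than on slides 2 and 3. The difference was -0.0064 ± 0.29 (adjusted p = 0.993) for obstruction/vehicle against sham/vehicle and 1.04 ± 0.29 (adjusted p = 0.128) for sham/Eviprostat against sham/vehicle. With the slide block the second passed (adjusted p = 3.7e-05) and the first did not (0.97).

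Ttn, the giant spring protein titin, had log2 ratios of -0.42, -0.71 and -0.67 in obstruction/Eviprostat, -0.98, -0.23 and -0.89 in obstruction/vehicle, 1.21, 1.24 and 1.43 in sham/Eviprostat, and -0.025, -0.031 and 0.044 in sham/vehicle. Both obstructed groups lay below sham/vehicle and overlapped each other, and sham/Eviprostat lay above. Ttn fell by 0.70 on the log2 scale in obstruction/vehicle against sham/vehicle (SE 0.17, adjusted p = 0.0184) with a difference of -0.93 when obstruction/vehicle replicate 2 was left out, and rose by 1.30 ± 0.17 (adjusted p = 0.00208) in sham/Eviprostat. The call with obstruction was lost in 8 of 23 alternatives. Of the 7 other Ttn probes, all dimmer, 1 fell with obstruction under vehicle, and their differences ranged from -0.88 to 0.12. In sham/Eviprostat against sham/vehicle 1 of the 7 rose, with differences from -0.048 to 0.99.

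Actn2, the actinin of all striated Z-discs, had log2 ratios of -0.043, -0.20 and -0.32 in obstruction/Eviprostat, -0.23, -0.027 and 0.07 in obstruction/vehicle, 0.05, 0.44 and 0.43 in sham/Eviprostat, and -0.15, -0.026 and -0.25 in sham/vehicle. Its sham/Eviprostat and obstruction/vehicle arrays overlapped. Myot, the Z-disc protein myotilin, had log2 ratios of -0.14, -0.27 and -0.24 in obstruction/Eviprostat, -0.66, -0.027 and -0.53 in obstruction/vehicle, 0.50, 1.12 and 1.12 in sham/Eviprostat, and -0.17, 0.15 and 0.069 in sham/vehicle. Neb, the thin filament ruler nebulin, had log2 ratios of -0.086, -0.12 and -0.37 in obstruction/Eviprostat, -0.037, 0.009 and 0.28 in obstruction/vehicle, 0.58, 1.01 and 1.13 in sham/Eviprostat, and 0.023, 0.0048 and 0.089 in sham/vehicle. For Myot and Neb all sham/Eviprostat arrays lay above all others, and they rose by 0.89 ± 0.19 (adjusted p = 0.0365) and 0.87 ± 0.14 (adjusted p = 0.00884) against sham/vehicle. The call of Myot was lost in 10 of 22 alternatives. Actn2 gave 0.45 ± 0.13 (adjusted p = 0.133), which passed with the slide block (adjusted p = 0.0416). Myot was well above background on 2 of the 3 arrays in each obstructed group, and Neb on only 1 of the 3 obstruction/Eviprostat arrays. With obstruction under vehicle Myot gave -0.42 ± 0.19 (adjusted p = 0.187), or 0.0448 with the slide block, and passed without obstruction/vehicle replicate 2 (-0.61, adjusted p = 0.0296).

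Of the 3 calcium release genes, 2 rose with Eviprostat in sham rats, and limma called none with obstruction under vehicle (1 at an unadjusted p under 0.05). Ryr1, the calcium release channel, had log2 ratios of 0.02, -0.49 and -0.40 in obstruction/Eviprostat, 0.19, -0.00034 and -0.12 in obstruction/vehicle, 1.59, 1.03 and 0.95 in sham/Eviprostat, and -0.10, -0.13 and -0.044 in sham/vehicle. The 3 sham/Eviprostat arrays lay above all others, which overlapped. It rose by 1.28 ± 0.17 (adjusted p = 0.00252) against sham/vehicle, and a second probe of Ryr1 by 1.32 ± 0.18 (adjusted p = 0.00259). Cacna1s, the voltage sensor of the transverse tubule, had log2 ratios of -0.25, -0.35 and -0.30 in obstruction/Eviprostat, -0.74, -0.16 and -0.43 in obstruction/vehicle, 0.68, 1.09 and 0.92 in sham/Eviprostat, and -0.22, 0.11 and 0.067 in sham/vehicle. It rose by 0.91 ± 0.15 (adjusted p = 0.00915) in sham/Eviprostat, and with obstruction under vehicle gave -0.43 ± 0.15 (adjusted p = 0.0932), or an adjusted p of 0.0121 with the slide block. Without obstruction/vehicle replicate 2 the second of these Cacna1s values was -0.57 (adjusted p = 0.0162). A dimmer second probe of Cacna1s, well above background on all 12 arrays, passed neither test, with -0.066 (adjusted p = 0.954) in sham/Eviprostat against sham/vehicle and -0.099 (adjusted p = 0.7) with obstruction under vehicle. The rise in sham/Eviprostat was not called for the mean of both probes (0.42). Trdn, the anchor protein triadin, had log2 ratios of -0.16, -0.19 and -0.16 in obstruction/Eviprostat, -0.74, -0.03 and 0.36 in obstruction/vehicle, 0.41, 0.89 and 0.85 in sham/Eviprostat, and -0.24, 0.16 and 0.056 in sham/vehicle. Its obstruction/vehicle arrays spread from below 0 to above it. The brighter probe gave 0.72 ± 0.23 (adjusted p = 0.196) for sham/Eviprostat against sham/vehicle, with an adjusted p of 0.0167 under the slide block, and a dimmer probe of Trdn rose by 0.90 ± 0.13 (adjusted p = 0.00439).

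The effect of Eviprostat differed between obstructed and sham rats for 8 of the 27 genes, all with the lower effect in obstructed rats (of all kept probes, 4.89% were lower and 3.78% higher in this test). With the slide as a block 19 were lower and none higher (of all kept probes, 11.4% were lower and 10.5% higher). The 8 were Myh7, Ampd1, Myl3, Ryr1, Ttn, Neb, Pygm and Cacna1s, and none was a fast fibre gene. Myh7 had an effect of -1.91 ± 0.31 in obstructed rats against 0.84 ± 0.31 in sham rats, a difference of -2.75 ± 0.44 (adjusted p = 0.00236). Ampd1 had -0.62 ± 0.16 in obstructed rats against 1.62 ± 0.16 in sham rats, a difference of -2.24 ± 0.23 (adjusted p = 8.97e-05). For Myl3 the effects were -0.29 ± 0.16 and 1.83 ± 0.16, with a difference of -2.12 ± 0.23 (adjusted p = 0.000129). By contrast, Eno3 had 1.19 ± 0.12 in obstructed rats and 1.21 ± 0.12 in sham rats, with a difference of -0.025 ± 0.18 (adjusted p = 0.958), and Pgam2 had 0.94 ± 0.15 and 0.91 ± 0.15, with a difference of 0.029 ± 0.21 (adjusted p = 0.958). The calls of Cacna1s and Pygm in this test were kept in 10 and 15 of 22 alternatives. Dimmer second probes of Cacna1s and Ampd1 gave 0.082 (adjusted p = 0.848) and -0.29 (adjusted p = 0.313) for the difference of effects, and of the 7 other Ttn probes 1 was lower, with values from -0.87 to 0.16. The second probes of Ryr1 and Trdn were both lower, with -1.68 and -0.80. Without obstruction/vehicle replicate 2 Tnnt1 passed this test too (-1.18, adjusted p = 0.0154). A p above the threshold does not show that 2 effects were alike. For the 8 fast fibre genes the median difference of effects was -0.71, and with the block 6 of them passed.

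**Figure D4:**
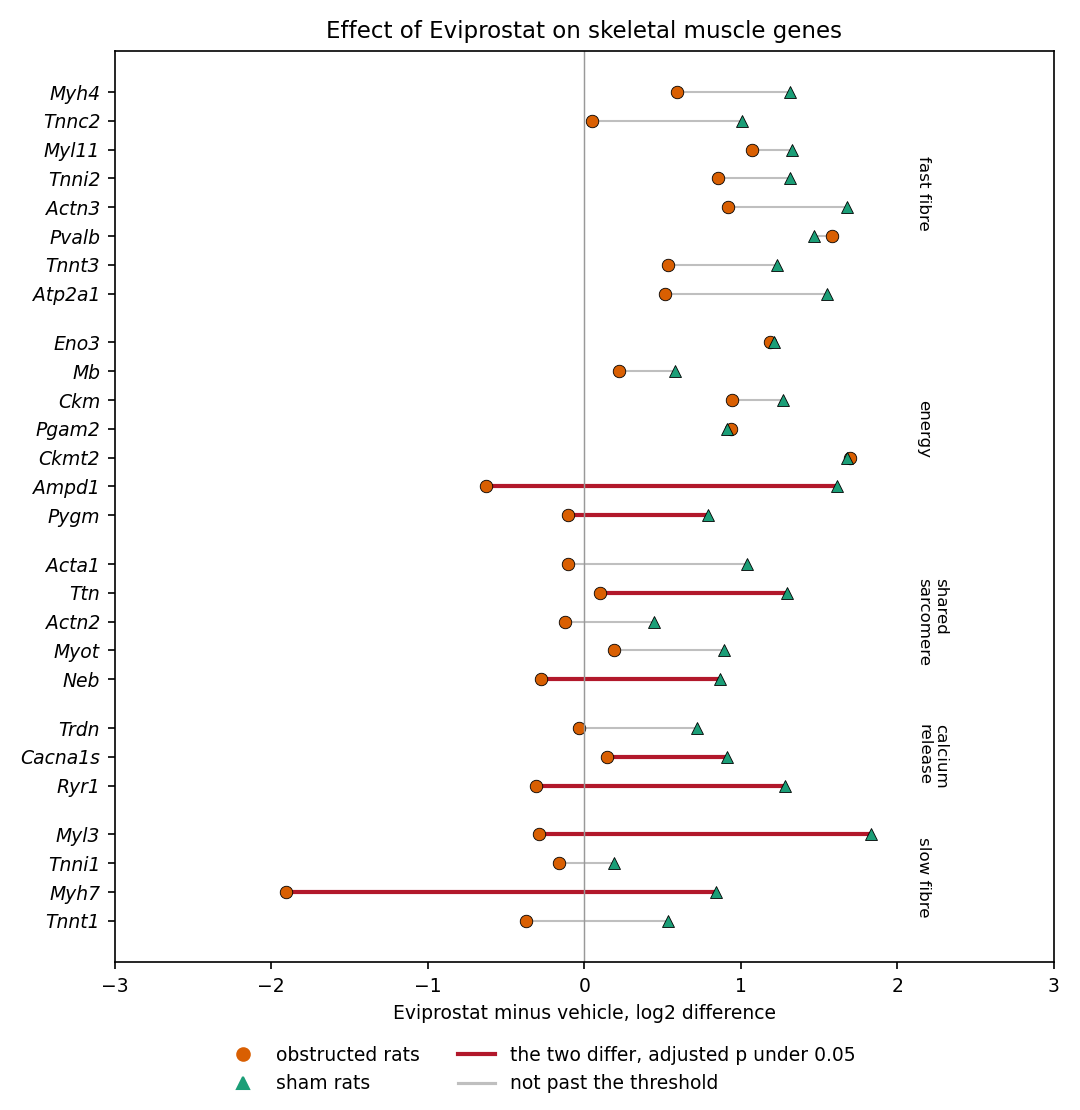
Log2 difference between Eviprostat and vehicle (horizontal axis) for each of the 27 genes (rows, by class), in obstructed rats (circles) and sham rats (triangles). Red lines mark the 8 genes whose effects differed at an adjusted p under 0.05. Eno3, Pgam2 and Ckmt2 have circles and triangles close together, and Myh7 and Ampd1 have them on opposite sides of 0.

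The 3 genes reached only by accession or synonym were fitted in the same way. Myl1, the essential light chain of fast fibres, had log2 ratios of -0.93, -0.92 and -0.90 in obstruction/Eviprostat, -1.99, -1.17 and -1.74 in obstruction/vehicle, 1.03, 1.38 and 1.33 in sham/Eviprostat, and -0.34, -0.023 and -0.016 in sham/vehicle, without overlap between groups. Its differences were -1.51 ± 0.18 (adjusted p = 0.000165) with obstruction under vehicle, 0.72 ± 0.18 (adjusted p = 0.0248) with Eviprostat in obstructed rats and 1.37 ± 0.18 (adjusted p = 0.00225) with Eviprostat in sham rats. Myl2, the regulatory light chain of slow fibres and heart, passed no test in the fit without the slide block, and in sham/Eviprostat against sham/vehicle its adjusted p was 0.324 without the block and 0.0449 with it. Myl2 had differences from -0.37 to 0.29 over the 4 pairwise comparisons. Ldb3, a Z-disc protein, fell with obstruction under vehicle by 0.59 on the log2 scale (SE 0.12, adjusted p = 0.00693) and gave 0.31 ± 0.12 (adjusted p = 0.341) with Eviprostat in sham rats.

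Each channel was also examined alone. In Cy3, which carries sham/vehicle RNA on every array, limma called none of the 27 genes in any of the 5 comparisons (0 to 4 per comparison at an unadjusted p under 0.05), and over the 4 pairwise comparisons the differences lay between -0.91 and 0.91. Of all kept probes, Cy3 alone called 0.0166% to 0.199% per comparison, so none of 27 was near those shares. In Cy5 alone, 2 rose and 13 fell with obstruction under vehicle, 9 rose and 3 fell with Eviprostat in obstructed rats, 19 rose with Eviprostat in sham rats and 23 fell in obstruction/Eviprostat against sham/Eviprostat. Of all kept probes, Cy5 alone called 9.13% higher and 8.27% lower in the first of these, 6.61% and 8.28% in the second, 1.21% and 0.898% in the third, and 1.02% and 1.55% in the last. Summed over the 27 genes, the Cy5 signal was 54878 to 66472 in obstruction/Eviprostat, 43073 to 48585 in obstruction/vehicle, 241842 to 292902 in sham/Eviprostat and 98524 to 122717 in sham/vehicle. The lowest obstruction/Eviprostat sum, that of replicate 2, lacks Tnnc2, which had no value on that array. The ranges of the 4 groups did not overlap.

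A wider list of 46 other skeletal muscle genes had 37 with a tested probe. Of these, 5 rose and 7 fell with obstruction under vehicle (of all kept probes, 7.16% and 4.45%), and 5 rose and 6 fell with Eviprostat in obstructed rats (3.9% and 5.89%). In sham/Eviprostat against sham/vehicle 11 rose and none fell (0.87% and 0.659%), or 18 and none with the slide block, and in obstruction/Eviprostat against sham/Eviprostat 14 fell and none rose (1.31% and 0.97%). The summed Cy5 signal of the 37 genes was 105561 to 121709 in obstruction/Eviprostat and 158087 to 169905 in obstruction/vehicle. It was 117600 to 136440 in sham/Eviprostat and 81367 to 91574 in sham/vehicle. Unlike the sum of the 27 genes, this sum was highest in obstruction/vehicle and lowest in sham/vehicle. The median difference of the 37 genes with obstruction under vehicle was -0.073. Trim63, a ubiquitin ligase of muscle atrophy, fell with obstruction (-1.72 ± 0.14, adjusted p = 6.89e-06) and was higher in obstruction/Eviprostat than in obstruction/vehicle (1.37 ± 0.14, adjusted p = 5.41e-05), while in sham rats Eviprostat gave -0.31 ± 0.14 (adjusted p = 0.466). It was the 1 gene of this list with a higher Eviprostat effect in obstructed than in sham rats (1.68 ± 0.20, adjusted p = 0.000226), and 13 had a lower one (of all kept probes, 3.78% and 4.89%). Myoz1, a calcineurin-binding Z-disc protein of fast fibres, differed by -1.50 ± 0.19 (adjusted p = 0.000236), 1.23 ± 0.19 (adjusted p = 0.00123) and 1.37 ± 0.19 (adjusted p = 0.0028) in the same comparisons. Cox8b, a muscle form of a cytochrome oxidase subunit, fell with obstruction (-1.75 ± 0.29, adjusted p = 0.00192) and was higher with Eviprostat in obstructed rats (1.33 ± 0.29, adjusted p = 0.0124).

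Other genes of that list rose with obstruction or with Eviprostat in sham rats. Csrp3, a stress sensor of slow and heart muscle, rose with obstruction (1.36 ± 0.32, adjusted p = 0.0152) and was lower with Eviprostat in obstructed rats (-1.36 ± 0.32, adjusted p = 0.0177). Smpx, a small striated muscle protein, gave 0.84 ± 0.16 (adjusted p = 0.00409) and -1.84 ± 0.16 (adjusted p = 1.35e-05) in these comparisons. Des and Tpm2, which smooth muscle also expresses, rose with obstruction by 1.46 ± 0.18 (adjusted p = 0.000174) and 1.35 ± 0.15 (adjusted p = 9.42e-05). Mybpc1, the slow myosin-binding protein C, and Mybpc2, the fast one, rose with Eviprostat in sham rats by 1.36 ± 0.12 (adjusted p = 0.000122) and 1.05 ± 0.15 (adjusted p = 0.00335). So did Klhl41, Stac3 and Myom2, which serve sarcomere assembly, calcium release and the M-band, by 1.13 ± 0.15 (adjusted p = 0.00259), 1.13 ± 0.24 (adjusted p = 0.0425) and 1.15 ± 0.22 (adjusted p = 0.0252). In obstruction/Eviprostat against sham/Eviprostat, Hrc and Myom1 were among those lower, at -1.18 ± 0.11 (adjusted p = 0.000129) and -1.14 ± 0.25 (adjusted p = 0.0365).

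Of 11 regulators of muscle identity, 9 were tested. Limma called none with obstruction under vehicle or with Eviprostat in obstructed rats (1 in each at an unadjusted p under 0.05). Of all kept probes, 7.16% rose and 4.45% fell in the first of these, and 3.9% rose and 5.89% fell in the second. None of 9 was near those shares. With Eviprostat in sham rats 1 rose (0.87% of all kept probes), and in obstruction/Eviprostat against sham/Eviprostat 2 fell (1.31%). Myod1, which commits cells to the muscle lineage, rose in sham/Eviprostat against sham/vehicle (0.67 ± 0.10, adjusted p = 0.00591) and fell in obstruction/Eviprostat against sham/Eviprostat (-0.87 ± 0.10, adjusted p = 0.000703). Myf6, expressed in mature fibres, was lower in that comparison too (-0.74 ± 0.12, adjusted p = 0.0057). Myf6 was well above background on only 7 of 12 arrays.

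Markers of other tissues moved with the same comparisons. Of all kept probes 7.16% rose and 4.45% fell with obstruction under vehicle, 3.9% rose and 5.89% fell with Eviprostat in obstructed rats, and 0.87% rose and 0.659% fell with Eviprostat in sham rats. Pbsn, the androgen-dependent secretory protein probasin of the rat prostate, was well above background on all 12 arrays. Of 13 tested prostate secretory genes, Pbsn among them, 4 rose and 4 fell with obstruction under vehicle, 5 rose and 4 fell with Eviprostat in obstructed rats, and 3 rose and none fell with Eviprostat in sham rats. Their summed Cy5 signal was 538286 to 667529 in obstruction/Eviprostat, 295411 to 472316 in obstruction/vehicle, 578599 to 667607 in sham/Eviprostat and 508819 to 584090 in sham/vehicle. Obstruction/vehicle lay below the other groups in this sum, while the median difference of the 13 genes with obstruction under vehicle was -0.19. The secretory sums of obstruction/Eviprostat overlapped those of both sham groups, which the sums of the 27 skeletal muscle genes did not. Of 7 tested seminal vesicle secretory genes, all 7 rose with obstruction under vehicle and with Eviprostat in sham rats, and all 7 fell with Eviprostat in obstructed rats. Their summed Cy5 signal was 225581 to 251938 in obstruction/Eviprostat, 1236050 to 2443190 in obstruction/vehicle, 625393 to 1111710 in sham/Eviprostat and 227821 to 276908 in sham/vehicle. Of 9 smooth muscle genes, 6 rose with obstruction under vehicle, 4 fell with Eviprostat in obstructed rats and 3 rose with Eviprostat in sham rats, or 6 with the slide block. Their sums were 67439.9 to 76944.6 in obstruction/Eviprostat, 125796 to 135627 in obstruction/vehicle, 78481 to 83503 in sham/Eviprostat and 54308 to 64473 in sham/vehicle. Of 9 nerve genes, 7 rose with obstruction under vehicle and 6 with Eviprostat in sham rats. Macrophage genes (10 of 11 higher) and adipocyte genes (5 of 10 higher) rose with obstruction under vehicle, and limma called none of either list with Eviprostat in sham rats (2 macrophage and 0 adipocyte genes at an unadjusted p under 0.05). Of 9 heart muscle genes 3 rose with obstruction under vehicle, among them Tnnt2 (1.30 ± 0.15, adjusted p = 0.000133). With Eviprostat in obstructed rats 9 of 11 macrophage, 5 of 10 adipocyte, 4 of 9 nerve and 2 of 9 heart muscle genes fell. Limma called no gene of these lists higher there. The part of these tissues in the skeletal muscle results was not tested.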

How the data were processed

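RNA of rat prostate was measured on 12 arrays of 2 colours. Per the file headers, Agilent Feature Extraction 9.5.1.1 made the mean spot and local background intensity of each channel, which the authors deposited. The same files hold the scanner software's log10 ratio of Cy5 over Cy3, and the authors' deposited value table equals it (largest difference 0). Per the labels, Cy3 carried sham/vehicle RNA on every array without a dye swap, and labelling began from 1500 ng of sham/vehicle RNA and 300 ng of each other. Array number limits the precision.

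Background was corrected with normexp (offset 50), ratios were normalised by loess, and probes well above background in Cy5 on at least 3 of 12 arrays were kept (36098 of 41012). Log2 ratios went into limma 3.58.1 (R 4.3.3), with 1 mean per group and 8 residual degrees of freedom. On simulated data for obstruction/vehicle against sham/vehicle over 36098 probes, 80% of probes changed by -1 or by 1 were called, 100% of those changed by -2 and 94% of those changed by 2. In that simulation 50 probes were changed by each amount and noise was independent between arrays. The measured arrays had the correlated deviations given next, so those rates need not hold for them. Deviations of same-numbered arrays correlated by 0.155 to 0.779 over 18 pairs. Over 36 pairs of different numbers the correlation ran from -0.702 to 0.558, negative between number 1 and the others and positive between numbers 2 and 3. The headers place each number on 1 slide. Slides 2 and 3 share a scan day that slide 1 does not. A group always took the same place on a slide, and place and group cannot be told apart. The slide is the block named in the text.

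Members, classes, lists and motifs were chosen with earlier results of these data known. Every member is named. Per-array values are given for the measured members whatever their differences, and of the other skeletal muscle genes those past the test with a difference of at least 1 in any comparison are named, except for 1 that is counted but not reported here. The alternatives were normalization, channel, background, filters, arrays fitted, probe per gene, slides, and each array left out. The versions with 30 genes, and with the block but without obstruction/vehicle replicate 2, were chosen after seeing the data.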

Additional observations from a re-analysis of the deposited data

Results flagged for a closer look

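For 8 genes the effect of Eviprostat differed between obstructed and sham rats, by the interaction term of the limma fit with Benjamini-Hochberg adjustment over all kept probes. Each had a lower effect in obstructed rats, and each effect below is Eviprostat minus vehicle on the log2 scale. Of all kept probes, 4.89% were lower and 3.78% higher in this test. Myh7 gave -1.91 ± 0.31 in obstructed rats and 0.84 ± 0.31 in sham rats, and the difference was -2.75 ± 0.44 (adjusted p = 0.00236). For Ampd1 the effect was -0.62 ± 0.16 in obstructed rats and 1.62 ± 0.16 in sham rats, with a difference of -2.24 ± 0.23 (adjusted p = 8.97e-05). Myl3 had an effect of -0.29 ± 0.16 in obstructed rats and 1.83 ± 0.16 in sham rats, so that the difference was -2.12 ± 0.23 (adjusted p = 0.000129). In Ryr1 the obstructed rats gave -0.31 ± 0.17 and the sham rats 1.28 ± 0.17, with a difference of -1.59 ± 0.24 (adjusted p = 0.00161). In these 4 genes the sham estimate was above 0 and the obstructed estimate below 0, but only Ampd1 passed the limma test on both sides. In obstructed rats Myl3 (adjusted p = 0.328) and Ryr1 (adjusted p = 0.32) did not pass, nor did Myh7 in sham rats (adjusted p = 0.316). The Ampd1 call in obstructed rats was lost in some alternatives, and a dimmer probe of Ampd1 passed on neither side, as given above.

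The other 4 differed by less. Ttn gave 0.099 ± 0.17 in obstructed rats and 1.30 ± 0.17 in sham rats, with a difference of -1.20 ± 0.24 (adjusted p = 0.00852). Neb gave -0.28 ± 0.14 and 0.87 ± 0.14 in obstructed and sham rats, and the difference was -1.14 ± 0.20 (adjusted p = 0.0041). For Pygm the values were -0.10 ± 0.15 in obstructed rats and 0.79 ± 0.15 in sham rats, and -0.90 ± 0.22 (adjusted p = 0.0239) for their difference. Cacna1s had 0.14 ± 0.15 in obstructed rats and 0.91 ± 0.15 in sham rats, with a difference of -0.77 ± 0.21 (adjusted p = 0.0447). The second probes of Cacna1s and Ampd1 gave 0.082 and -0.29 for this difference and were not called. Of the 7 other Ttn probes 1 was lower, with values from -0.87 to 0.16, and the second probe of Ryr1 was lower too (-1.68). Seminal vesicle genes gave lower effects in obstructed than in sham rats for 7 of 7, and smooth muscle genes for 5 of 9. So did 8 of 11 macrophage, 6 of 9 nerve, 5 of 10 adipocyte and 2 of 9 heart muscle genes, and 2 of 9 muscle regulators. Limma called no gene of these lists higher. Of the 37 other skeletal muscle genes 13 were lower and 1 higher, and of 13 prostate secretory genes 4 were lower and 4 higher. The part of these lists in the differences of the 8 genes was not tested.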

How the results depend on the processing

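No difference of any of the 27 genes changed its sign while called under any alternative with a test. With the slide as a replicate block, the count of genes whose Eviprostat effect differed between obstructed and sham rats was 19 in place of 8. The block lost no call of the 27 genes and kept the other totals over the 27 within 1.5 times, while 2 genes in place of 1 were higher with obstruction under vehicle, and counts within classes that moved further are given above. Median centring in place of loess left 8 genes called in obstruction/vehicle against sham/vehicle, 3 in obstruction/Eviprostat against obstruction/vehicle, 5 in sham/Eviprostat against sham/vehicle and 12 in obstruction/Eviprostat against sham/Eviprostat. The scanner software's ratios called 21 genes (16 higher, 5 lower) in obstruction/Eviprostat against obstruction/vehicle and 21 (2 higher, 19 lower) for the difference of effects, with a fast fibre median of -1.74 with obstruction under vehicle. In the order of comparisons used above, its slow fibre medians were 1.72, -1.69, 2.02 and -1.82, and -3.90 for the difference of effects. Without background subtraction the slow fibre medians were 0.24 and -0.22 in sham/Eviprostat against sham/vehicle and in obstruction/Eviprostat against sham/Eviprostat, and -0.78 for the difference of effects. Requiring all 12 arrays well above background left 2 slow fibre genes, with medians of 0.011 for obstruction under vehicle, 1.01 for sham/Eviprostat against sham/vehicle and -1.22 for obstruction/Eviprostat against sham/Eviprostat. Slides 2 and 3 alone called 20 genes for the difference of effects. The block without obstruction/vehicle replicate 2 called 16 genes (12 higher, 4 lower) with Eviprostat in obstructed rats and 21 (2 higher, 19 lower) for the difference of effects. Within slides, the slow fibre median with obstruction under vehicle was -0.00027 on slide 2 and 0.63 on slide 3, that of the difference of effects was -1.95 on slide 3, and the fast fibre median with Eviprostat in obstructed rats was 1.01 on slide 1. The causes of these shifts were not tested. Shares over all kept probes are given above for the fit of all arrays, the block and Cy5 alone, and not for the other alternatives. Whether the member counts under those alternatives, arrays left out included, moved with the counts over all probes was not tested.

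Leaving out each array in turn gave 11 to 16 genes called with obstruction under vehicle, 7 to 11 with Eviprostat in obstructed rats, 12 to 20 with Eviprostat in sham rats, 18 to 22 for obstruction/Eviprostat against sham/Eviprostat and 6 to 10 for the difference of effects. The 12 followed leaving out sham/Eviprostat replicate 2, where the full set gave 18. The slow fibre medians, in the same order, ranged from 0.22 to 0.47, from -0.49 to -0.26, from 0.61 to 0.81, from -0.67 to -0.51 and from -1.67 to -1.42. The fast fibre medians ranged from -1.65 to -1.60, from 0.66 to 0.77, from 1.31 to 1.45, from -2.19 to -2.11 and from -0.74 to -0.55. With the 3 genes reached by accession or synonym added, 30 genes gave 1 higher and 14 lower with obstruction under vehicle, 9 and 2 with Eviprostat in obstructed rats, 19 and 0 with Eviprostat in sham rats, 0 and 22 in obstruction/Eviprostat against sham/Eviprostat, and 0 and 8 for the difference of effects. Dim signal limits Tnnt1, Neb, Myh7 and Myot, each not well above background on at least 1 array of an obstructed group.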
